A study of Mus musculus with 2 samples.

Results

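Marco, Msr1, Cd36, Scarb1, Scarb2 and Colec12 are scavenger receptor genes of classes A and B. They were found by symbol, and all 6 were present among the 26078 genes counted in each of the 2 single-cell libraries of mouse liver macrophage preparations. Their levels were described in every cell class that marker genes could separate, beside the level of the same RNA in lymphocytes. The class E receptor Olr1 was at 0.33 CPM (the standard scaling of a gene's UMI count by all UMIs of the class) in the Kupffer-like cells of saline and 0.31 CPM in those of Ter119, too low to compare.

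Scavenger receptors are surface proteins that bind a broad set of ligands, among them oxidised and acetylated lipoproteins, bacterial wall components, dying cells and particles, and carry them into the cell. Class A receptors (Marco, Msr1 and the collectin-related Colec12) have collagen-like stalks, while class B receptors (Cd36, Scarb1 and Scarb2) cross the membrane at both ends and handle lipids. In the liver these receptors are known from Kupffer cells, the resident macrophages of the sinusoids, and from the sinusoidal endothelium, a major site of scavenging from blood.

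The preparations came from C57BL/6J mice aged 7 to 10 weeks, 1 per group, with no genetic change named in the labels. The Ter119 mouse received antibody Ter119, which binds red cells and their precursors, with 35 ug once under the skin and then 10 ug on each of 10 days, and the saline mouse received saline in like volume. Livers were taken at 24 after the last injection (the labels give no unit), non-parenchymal cells were enriched with beads against F4/80 and CD11b, and hashtagged cells of both mice were pooled for 10x Genomics 3' sequencing. With 1 mouse and 1 library per group there is no replicate check and no test between groups: the treatment cannot be told apart from the mouse or its library, and the 95% intervals given here are exact and cover counting error only.

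The saline library held 97181787 UMIs in 18354 barcodes and the Ter119 library 61892074 UMIs in 25760 barcodes, and 11572 and 13846 cells passed the filters. Of the barcode sequences, 133 occurred in both libraries. Each cell was classed by its marker UMIs, with none of the 6 receptors among the markers. Kupffer-like cells numbered 9801 in saline and 8494 in Ter119, with median depths of 6713 and 3708.5 UMIs, and 223 and 1060 barcodes lay within 20% of the cut. All 12 Kupffer markers were detected in both libraries. In the Kupffer-like cells of saline and Ter119, Timd4 was at 575 and 24.0 CPM and Clec4f at 5291 and 931 CPM. Cd5l was at 7407 and 5167 CPM and Slc40a1 at 4321 and 3564 CPM, while Fcna alone of the 12 was higher in Ter119 (1810 and 2450 CPM). Whether the class differs between the libraries in its cells or in the RNA of like cells was not tested. Endothelial-like cells numbered 595 and 1120, monocyte-like cells 210 and 684, and the pooled B-like, T-like or NK-like cells that served as the lymphocyte background 99 and 198. In Ter119, 420 barcodes lay within 20% of the monocyte cut, and the granule genes Elane and Prtn3 of early myeloid cells were among the 10 leading genes of that class.

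The genes lie on mouse chromosomes of build GRCm38 (GENCODE M21) as whole gene bodies on the minus strand: Marco at chr1:120474538-120505024, Msr1 at chr8:39581685-39642673, Cd36 at chr5:17781690-17888801, Scarb1 at chr5:125277087-125341094 and Scarb2 at chr5:92441314-92506833. Their identifiers are ENSMUSG00000026390, ENSMUSG00000025044, ENSMUSG00000002944, ENSMUSG00000037936 and ENSMUSG00000029426, and Colec12 is ENSMUSG00000036103. Scarb1 overlaps the model Gm42633, Scarb2 overlaps the model Mir6415, and Colec12 overlaps 7 other gene models. Part of their counts could thus belong to another transcript if strand was not used in counting. Reads of a 3' library fall near transcript ends and counts were not divided by length, so levels are compared between cells and not between receptors.

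RefSeq upstream sequences were found for 3 of the 6 genes, Marco, Cd36 and Scarb2. All 3 are shown. Marco and Cd36 were the receptors that stood past 2-fold higher in Ter119 Kupffer-like cells, while Scarb2 had the lowest ratio. Each window is the 250 bases before the RefSeq start on GRCm38.p6, minus strand, written 5′ to 3′: chr1:120505025-120505274 for Marco, chr5:17835897-17836146 for Cd36 and chr5:92505658-92505907 for Scarb2. Capitals mark a match to a searched motif.
Marco: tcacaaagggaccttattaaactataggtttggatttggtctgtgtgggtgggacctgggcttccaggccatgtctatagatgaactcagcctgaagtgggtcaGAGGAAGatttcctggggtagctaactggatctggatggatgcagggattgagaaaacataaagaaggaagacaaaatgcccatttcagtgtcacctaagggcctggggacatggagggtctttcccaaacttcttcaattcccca
Cd36: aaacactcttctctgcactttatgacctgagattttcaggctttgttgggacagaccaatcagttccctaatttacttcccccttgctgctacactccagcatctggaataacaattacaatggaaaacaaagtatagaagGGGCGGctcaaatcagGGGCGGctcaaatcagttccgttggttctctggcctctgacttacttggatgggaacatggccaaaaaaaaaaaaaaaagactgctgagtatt
Scarb2: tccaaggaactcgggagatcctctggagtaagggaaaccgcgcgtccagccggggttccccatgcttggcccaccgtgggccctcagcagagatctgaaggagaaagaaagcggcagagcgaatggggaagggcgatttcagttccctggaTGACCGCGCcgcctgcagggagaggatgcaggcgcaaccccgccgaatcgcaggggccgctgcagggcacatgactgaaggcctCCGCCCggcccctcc

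The motifs were searched on both strands. The Marco window held GAGGAAG, a core of the type bound by the macrophage factors PU.1 and Spi-C, beginning 146 bases before the start. That core was found in 10.6% of 32851 windows of the same length. The Cd36 window held the GC box core GGGCGG at 109 and at 93 bases before the start, and 32.7% of windows held it. In the Scarb2 window TGACNNNGC, the antioxidant response element core, began 99 bases before the start (10.2% of windows), and a GC box core lay on the opposite strand at 15 bases. The DR1 element of PPAR and RXR (in 0.0335% of windows) and the letters TGANTCA (an AP-1 type element, 6.75%) and TATAAA (the TATA box core, 12.4%) were not in these 3 windows. The Marco window ends at a start site of GENCODE, while those of Cd36 and Scarb2 do not, and Cd36 has 6 annotated transcript starts, so other promoters of these genes lie outside the windows shown.

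In Kupffer-like cells, Marco and Cd36 were higher in the Ter119 library, Colec12 was slightly higher at a low level, Msr1 and Scarb2 were lower, and Scarb1 was nearly level. At 2-fold or more, 2 of the 6 receptors were higher (Marco and Cd36) and 0 were lower. Of the 6410 genes that reached 20 CPM in either library, 3.17% stood higher by 2-fold or more and 10.6% lower, 13.8% together. The median log2 ratio of all these genes was -0.31, and each ratio is read beside that shift. Most Kupffer-like cells lay in clusters 0, 2 and 5 in saline and in clusters 1, 3 and 7 in Ter119. Clusters were made without the receptor genes and with no correction for library, depth or hemoglobin RNA. What part of this split comes from such differences was not tested.

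**Figure D1:**
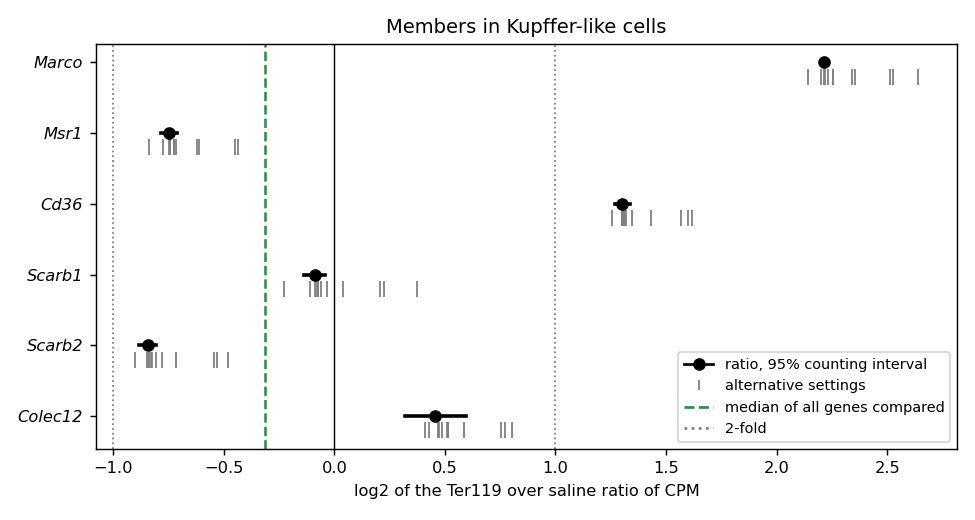
Log2 of the Ter119 over saline ratio of summed CPM in Kupffer-like cells for each receptor (points, with 95% counting intervals), with the ratios under the alternative settings as grey ticks, the median of all 6410 genes as a dashed line and 2-fold as dotted lines. Marco and Cd36 stand right of the 2-fold line under all settings drawn, Msr1 and Scarb2 left of the all-gene median at their main value, and the ticks of Scarb1 lie on both sides of 0.

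Marco, which binds bacteria and unopsonised particles on macrophages, stood at 847 CPM (interval 841 to 854) in saline Kupffer-like cells, against 3931 CPM (3910 to 3953) in Ter119 ones. The ratio was 4.64 (4.59 to 4.68). Of the 6410 genes, 99.0% had a lower ratio. Msr1, the class A receptor for modified low-density lipoprotein, had 434 CPM (429 to 439) in saline, against 258 CPM (253 to 264) in Ter119. Its ratio of 0.595 (0.581 to 0.610) is opposite in direction to that of Marco, although both belong to class A. Relative to the all-gene median the distance is smaller, a log2 ratio of -0.75 against -0.31. Colec12, a collectin with a scavenger receptor's stalk, had 15.9 CPM (14.97 to 16.8) and 21.8 CPM (20.2 to 23.5), a ratio of 1.37 (1.25 to 1.51), and passed the minimum of 20 CPM through the Ter119 library only.

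Cd36, the class B receptor for long-chain fatty acids and oxidised lipoproteins, stood at 194 CPM (191 to 197) in saline Kupffer-like cells, against 478 CPM (470 to 485) in Ter119 ones, a ratio of 2.47 (2.41 to 2.52). Scarb1, the receptor for high-density lipoprotein, was at 175 CPM (172 to 178) and 164 CPM (160 to 169). Its ratio of 0.940 (0.910 to 0.971) is close to 1, and its direction turned with the scaling: the log2 ratio was -0.09 with total counts, 0.22 with median-of-ratios factors and 0.21 with TMM factors. Scarb2, also known as LIMP-2, sits in the lysosomal membrane. It had 379 CPM (374 to 383) in saline, against 211 CPM (206 to 216) in Ter119, a ratio of 0.558 (0.543 to 0.572), below the ratios of the other 5 receptors in these cells.

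Cd36 and Scarb2 were more abundant in endothelial-like than in Kupffer-like cells, and endothelial marker RNA was present in Kupffer-like barcodes. The 12 endothelial markers summed to 944 CPM in Kupffer-like cells of saline and 491 CPM in those of Ter119, none of them at 0, against 24334 and 15271 CPM in the endothelial-like cells. The median cell held these markers at 841 and 258 CPM, hemoglobin left out. When barcodes with any endothelial marker UMI were left out, 791 saline and 3240 Ter119 Kupffer-like cells remained. In these, Cd36 was at 154 and 457 CPM (ratio 2.97), Marco at 611 and 3811 CPM (6.24), Msr1 at 374 and 245 CPM (0.654) and Scarb2 at 290 and 207 CPM (0.716). Scarb1 was at 120 and 156 CPM there, a ratio of 1.30, again on the other side of 1. Cd36 and Marco were thus past 2-fold also without such barcodes. The cells kept were 791 of 9801 in saline and 3240 of 8494 in Ter119, unlike parts of the class. In saline they had less Marco (611 against 847 CPM) and Scarb1 (120 against 175 CPM) than all Kupffer-like cells. In Ter119 the values were 3811 against 3931 CPM and 156 against 164 CPM. The subset thus differs from the class, and its depth was not compared. Hemoglobin and other erythroid marker RNA summed to 152 CPM in the Kupffer-like cells of saline and to 85753 CPM in those of Ter119. Totals without hemoglobin genes gave log2 ratios of 2.34 for Marco, 1.43 for Cd36 and 0.04 for Scarb1.

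At equal depth, the share of cells with a UMI pointed the same way as the levels, and was level for Scarb1. With each cell thinned to 1000 UMIs, Marco was detected in 41.5% (40.6 to 42.5) of saline and 83.3% (82.5 to 84.1) of Ter119 Kupffer-like cells. In lymphocytes, which should lack Marco, the shares were 12.1% (6.42 to 20.2) and 60.6% (53.4 to 67.5), with median depths before thinning of 4358 and 1760 UMIs. The Marco share in Kupffer-like cells was thus above the lymphocyte share in each library, and the lymphocyte share was itself much higher in Ter119. Without thinning, the Marco shares were 76.8% and 95.3% in Kupffer-like cells and 31.3% and 80.8% in lymphocytes.

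Cd36 was detected in 16.3% (15.6 to 17.04) of saline and 37.5% (36.5 to 38.5) of Ter119 Kupffer-like cells after thinning, against 1.01% and 12.6% of lymphocytes. Msr1 was detected in 34.2% (33.3 to 35.2) and 21.8% (21.0 to 22.7), against 3.03% of lymphocytes in both libraries. Scarb2 had 29.8% and 18.4%, against 7.07% and 6.06%. The shares of these 3 receptors in Kupffer-like cells lay above those of lymphocytes in both libraries, and those of Msr1 and Scarb2 were lower in Ter119 where that of Cd36 was higher. Scarb1 was detected in 14.6% of Kupffer-like cells in each library, against 3.03% and 7.58% of lymphocytes. Colec12 had 1.56% and 2.02%, and no lymphocyte held a thinned UMI of it, which allows a share of up to 3.03% of 99 saline and 1.52% of 198 Ter119 cells. The exact upper limits are 3.66% and 1.85%, and the Kupffer-like share in Ter119 had an interval of 1.74 to 2.35. Its thinned share could thus not be told apart from this background in either library. Its summed level could: saline Kupffer-like cells had 15.9 CPM (14.97 to 16.8), against 1.85 CPM (0.05 to 10.3) in lymphocytes. Ter119 Kupffer-like cells had 21.8 CPM (20.2 to 23.5), against 0 CPM in lymphocytes (upper limit 8.74).

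Without thinning, the order of the libraries turned for Colec12, and Scarb1 was no longer level. Cd36 was then at 54.7% and 72.9%, Msr1 at 82.4% and 55.9%, and Scarb2 at 79.8% and 51.1% of saline and Ter119 Kupffer-like cells, while lymphocytes had 12.1% and 21.7%, 19.2% and 9.09%, and 34.3% and 12.1%. Scarb1 was then at 59.5% and 43.1%, a wider distance than its CPM show. Colec12 was at 9.53% and 6.18%, the opposite direction to its CPM. Lymphocytes had 1.01% (0.03 to 5.50) and 0% (upper limit 1.85%) of it. Ter119 cells were shallower.

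**Figure D2:**
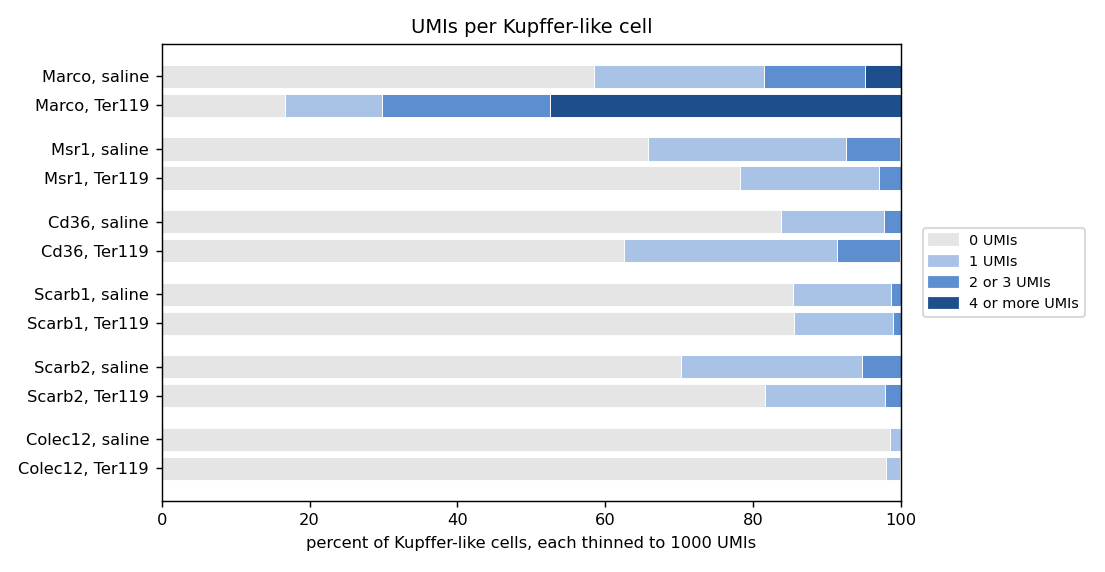
Share of Kupffer-like cells, each thinned to 1000 UMIs, that held 0, 1, 2 or 3, or 4 or more UMIs of each receptor (stacked bars, percent), for 9801 saline and 8494 Ter119 cells. The bar of Marco in Ter119 is unlike the others, with 47.4% of cells at 4 or more UMIs against 4.97% in saline.

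Counts of Marco per cell reached higher values in Ter119. After thinning, 4 or more Marco UMIs were found in 4.97% of saline and 47.4% of Ter119 Kupffer-like cells, and 16.7% of Ter119 cells had none. The Fano factor (variance over mean, near 1 for counting noise alone) of Marco was 2.36 in saline and 3.66 in Ter119. For the other 5 receptors it ran from 0.999 to 1.20. This factor grows with the mean, which was 4.13 UMIs for Marco and 0.0225 UMIs for Colec12 in Ter119, so it does not rank the receptors. Of Marco, Msr1 and Cd36, none was detected in 33.1% of saline and 8.75% of Ter119 cells, and all 3 in 2.81% and 7.19%. Cells with both Marco and Cd36 were 1.12 times the product of the separate shares in saline and 1.01 times in Ter119, and cells with both Marco and Msr1 1.03 and 1.01 times. In saline, Cd36 was detected in 18.2% of cells with a Marco UMI and in 14.9% of those without. In Ter119, Cd36 was detected in 37.9% of cells with a Marco UMI and in 35.6% of those without. Marco was detected in most Ter119 cells, which limits how far these products can be exceeded.

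Gpnmb, a glycoprotein of phagocytic and lipid-loaded macrophages, had 0.52 CPM in saline Kupffer-like cells and 414 CPM in Ter119 ones, and it divides the Ter119 cells into 5296 with and 3198 without a UMI. Marco stood at 3799 CPM (3774 to 3824) in cells with a Gpnmb UMI and at 4251 CPM (4210 to 4293) in cells without. Cd36 was at 490 CPM (481 to 500) and 447 CPM (434 to 461). Both sides were above the level of either receptor over all saline Kupffer-like cells. Only 31 saline cells had a Gpnmb UMI, with Marco at 1237 CPM (1122 to 1361), below both Ter119 sides, and Cd36 at 435 CPM (368 to 510), an interval that overlaps those of both Ter119 sides. Those 31 cells had a median depth of 10353 UMIs. Msr1 was at 259 and 257 CPM, Scarb1 at 164 and 165 CPM and Scarb2 at 213 and 208 CPM, each with overlapping intervals. The median depth was 4279 UMIs with and 2612 UMIs without a Gpnmb UMI, so the 2 sides also differ in depth.

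**Figure D3:**
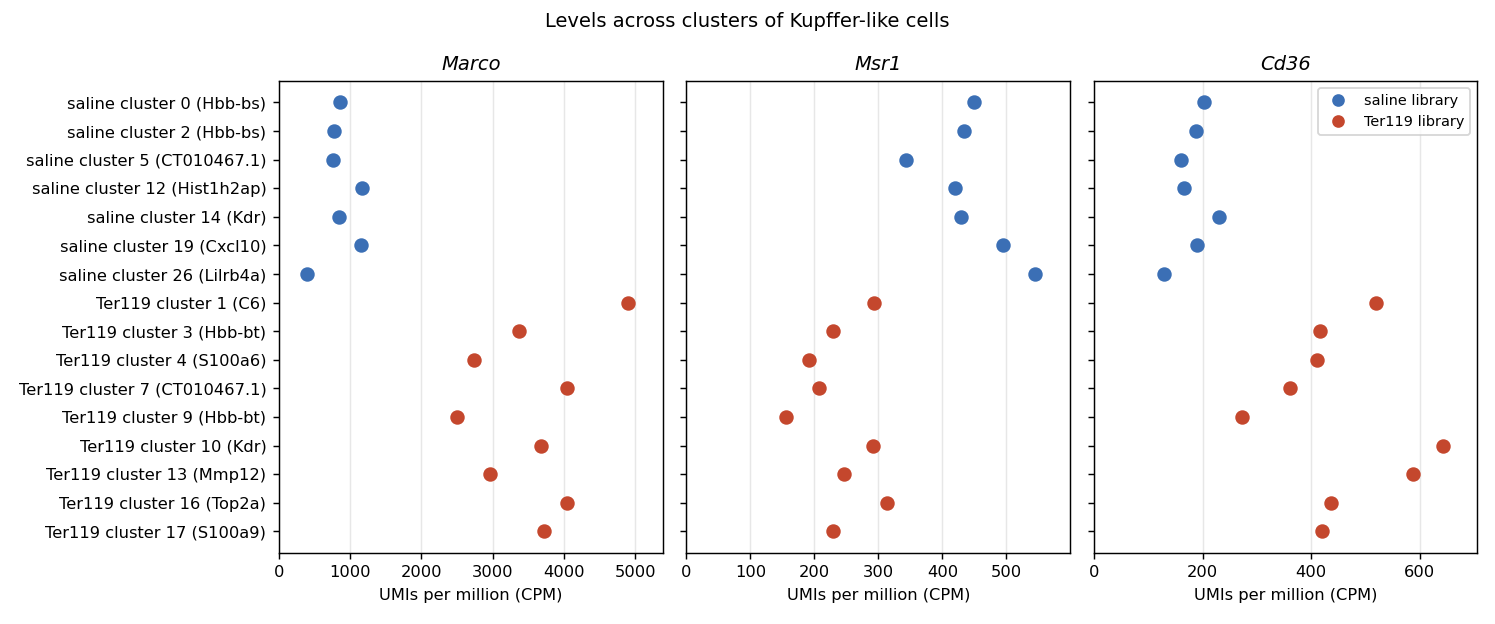
Levels (CPM) of Marco, Msr1 and Cd36 in the Kupffer-like cells of each cluster with at least 100 such cells, with the cluster's first leading gene in brackets, saline in blue and Ter119 in red. In the Marco panel the highest saline cluster (1166 CPM) lies below the lowest Ter119 cluster (2505 CPM). In the Cd36 panel the libraries are also apart (231 against 273 CPM), and in the Msr1 panel the saline clusters lie to the right (344 against 314 CPM). Levels are scaled by total counts only.

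Clusters of Kupffer-like cells varied around these means. In saline, Marco ran from 387 CPM in cluster 26, a group of 105 cells with a median depth of 1287 UMIs, to 1166 CPM in cluster 12, which is led by the proliferation genes Stmn1, Pclaf and Top2a. Cluster 19, led by Cxcl10, Cxcl9 and Cxcl2, was close to it at 1145 CPM. In Ter119, Marco ran from 2505 CPM in cluster 9, where hemoglobin was 39.2% of UMIs, to 4895 CPM in cluster 1, led by C6, Vsig4 and Clec4f. The ranges of the 2 libraries did not meet for Marco. Cluster 1 also held more of the resident marker Clec4f (1214 CPM) than any of the other 8 Ter119 clusters, so Marco was highest where Clec4f was. CPM counts hemoglobin in the total, which lowers every other gene in cluster 9. As both clusters and marker gates were made from the same cells, these cluster values are a description.

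Cd36 was highest elsewhere. In Ter119 it reached 642 CPM in cluster 10, where endothelial markers summed to 2834 CPM, and 587 CPM in cluster 13, led by Mmp12, Spp1 and major histocompatibility class II genes, where endothelial markers summed to 209 CPM. Cluster 13 had 870 CPM of Gpnmb and 2967 CPM of Marco, a low value for Ter119. The lowest Cd36 level of a Ter119 cluster was 273 CPM in cluster 9, and saline clusters ran from 129 to 231 CPM. Msr1 ran from 155 to 314 CPM in Ter119 and from 344 to 545 CPM in saline clusters. Its lowest value was in cluster 9 as well, and its highest in saline cluster 26. The gap between 314 and 344 CPM is smaller than the all-gene shift (median log2 ratio -0.31). Clusters were scaled by total counts only, so whether the Msr1 ranges stay apart under other scalings was not tested.

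Outside Kupffer-like cells, RNA of Kupffer markers was present in every class compared, and in most of them at a higher percent of the Kupffer-like level in Ter119. In lymphocytes, 8 Kupffer markers stood at 5.43% to 9.11% of their Kupffer-like level in saline and at 13.2% to 20.5% in Ter119. In endothelial-like cells they stood at 8.51% to 17.2% and 20.3% to 38.3%, and in monocyte-like cells at 5.97% to 12.1% and 15.9% to 23.4%. In neutrophil-like cells the ranges overlapped, with 12.5% to 29.0% in saline and 13.9% to 18.5% in Ter119. These ranges are the measure against which a receptor that is abundant in Kupffer-like cells is read in another class.

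**Figure D4:**
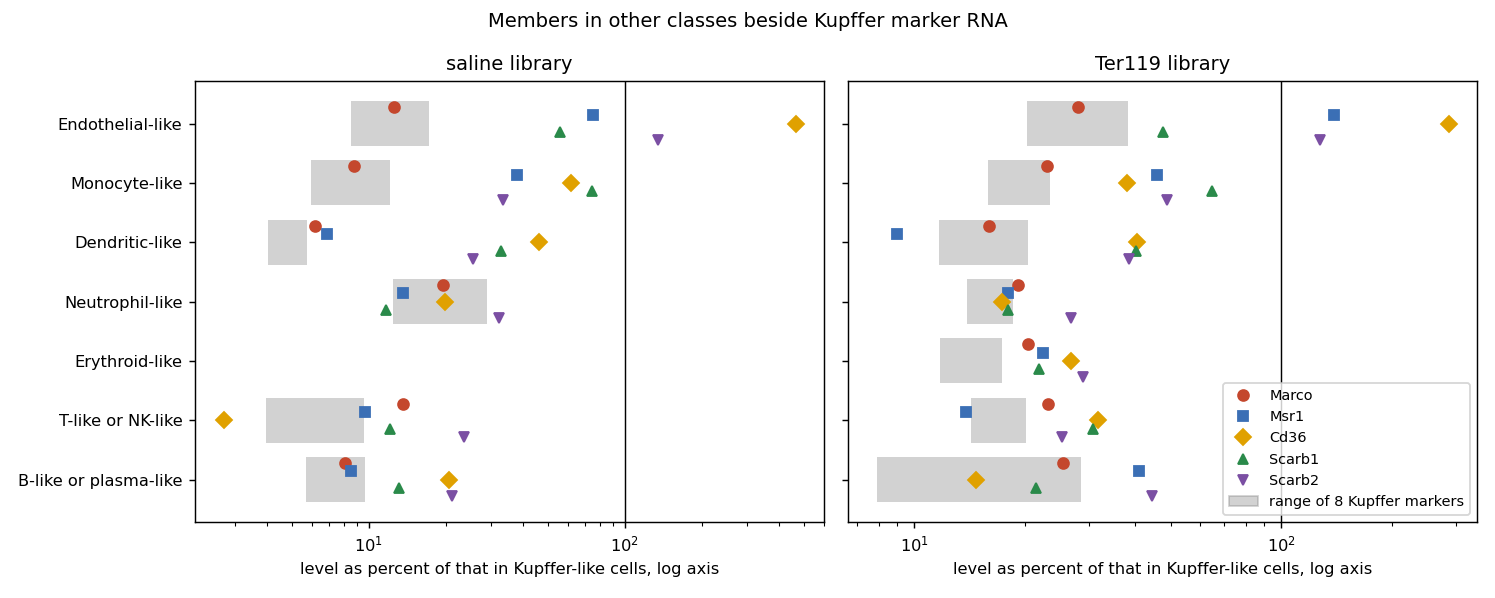
Level of 5 receptors in each other class as a percent of their level in Kupffer-like cells of the same library (symbols, log axis), with the range of 8 Kupffer markers in grey. In both libraries Marco lies within or near the grey range, while Cd36, Msr1, Scarb1 and Scarb2 lie to its right in endothelial-like and monocyte-like cells, and erythroid-like cells were found in Ter119 only.

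Marco was highest in Kupffer-like cells in both libraries. In Ter119 its next level was 1101 CPM (1053 to 1152) in endothelial-like cells, 28.02% of the Kupffer-like level and within the range of the markers. Monocyte-like cells had 906 CPM (857 to 957) or 23.1%, also within the range. Lymphocytes had 927 CPM (837 to 1023) or 23.6% (21.3 to 26.0), where the highest marker was at 20.5%. The ratios of Ter119 over saline for Marco outside Kupffer-like cells, from 4.59 (3.66 to 5.82) in neutrophil-like to 14.5 (9.15 to 23.9) in B-like or plasma-like cells, thus arose at levels within or a few points above those of Kupffer marker RNA. What part of them such RNA makes up was not tested.

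Cd36 was highest in endothelial-like cells, with 899 CPM (861 to 939) in the saline library and 1367 CPM (1313 to 1423) in the Ter119 library. That was 464% and 286% of the level in Kupffer-like cells, so the distance between the classes was smaller in Ter119. The ratio within endothelial-like cells was 1.52 (1.43 to 1.61), below 2-fold, where the median log2 ratio of 7212 genes was -0.20. After thinning, 53.6% (49.5 to 57.7) of saline and 70.8% (68.0 to 73.5) of Ter119 endothelial-like cells had a Cd36 UMI, and without thinning 82.7% and 82.1%, at median depths of 3748 and 1419 UMIs. Monocyte-like cells had 119 CPM (103 to 137) and 182 CPM (160 to 206), a ratio of 1.52 (1.2604 to 1.84), and lymphocytes 27.8 CPM (15.6 to 45.9) and 135 CPM (102 to 175).

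Scarb2 was likewise highest in endothelial-like cells, with 510 CPM (481 to 540) in saline, against 269 CPM (245 to 294) in Ter119. The ratio of 0.527 (0.473 to 0.587) resembles that in Kupffer-like cells in size, and the difference between the 2 classes was not tested. Msr1 changed places: it was higher in Kupffer-like than in endothelial-like cells in saline (434 against 326 CPM, the latter with an interval of 303 to 350) and lower in Ter119 (258 against 361 CPM, interval 333 to 390). In endothelial-like cells its ratio was 1.11 (0.995 to 1.23), an interval that holds 1. The thinned share of endothelial-like cells with an Msr1 UMI was 26.6% (23.0 to 30.3) in saline and 27.6% (24.99 to 30.3) in Ter119, and the unthinned share 53.3% and 37.2%.

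Scarb1 was highest in Kupffer-like cells in both libraries, next in monocyte-like cells (130 and 106 CPM in saline and Ter119) and then in endothelial-like cells (97.6 and 78.0 CPM). In Ter119 the intervals of the monocyte-like (89.9 to 125) and endothelial-like (65.6 to 92.2) levels overlapped, while in saline they did not. Monocyte-like cells also held Msr1 at 165 CPM (145 to 185) and 118 CPM (101 to 138) and Scarb2 at 127 and 103 CPM. All 3 were above the range of the Kupffer markers in that class in both libraries. Colec12 was at 14.1 CPM (9.62 to 19.9) in saline endothelial-like cells, an interval that overlaps the Kupffer-like level, and at 8.48 CPM (4.75 to 13.99) in Ter119, where the Kupffer-like level of 21.8 CPM was above it.

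**Figure D5:**
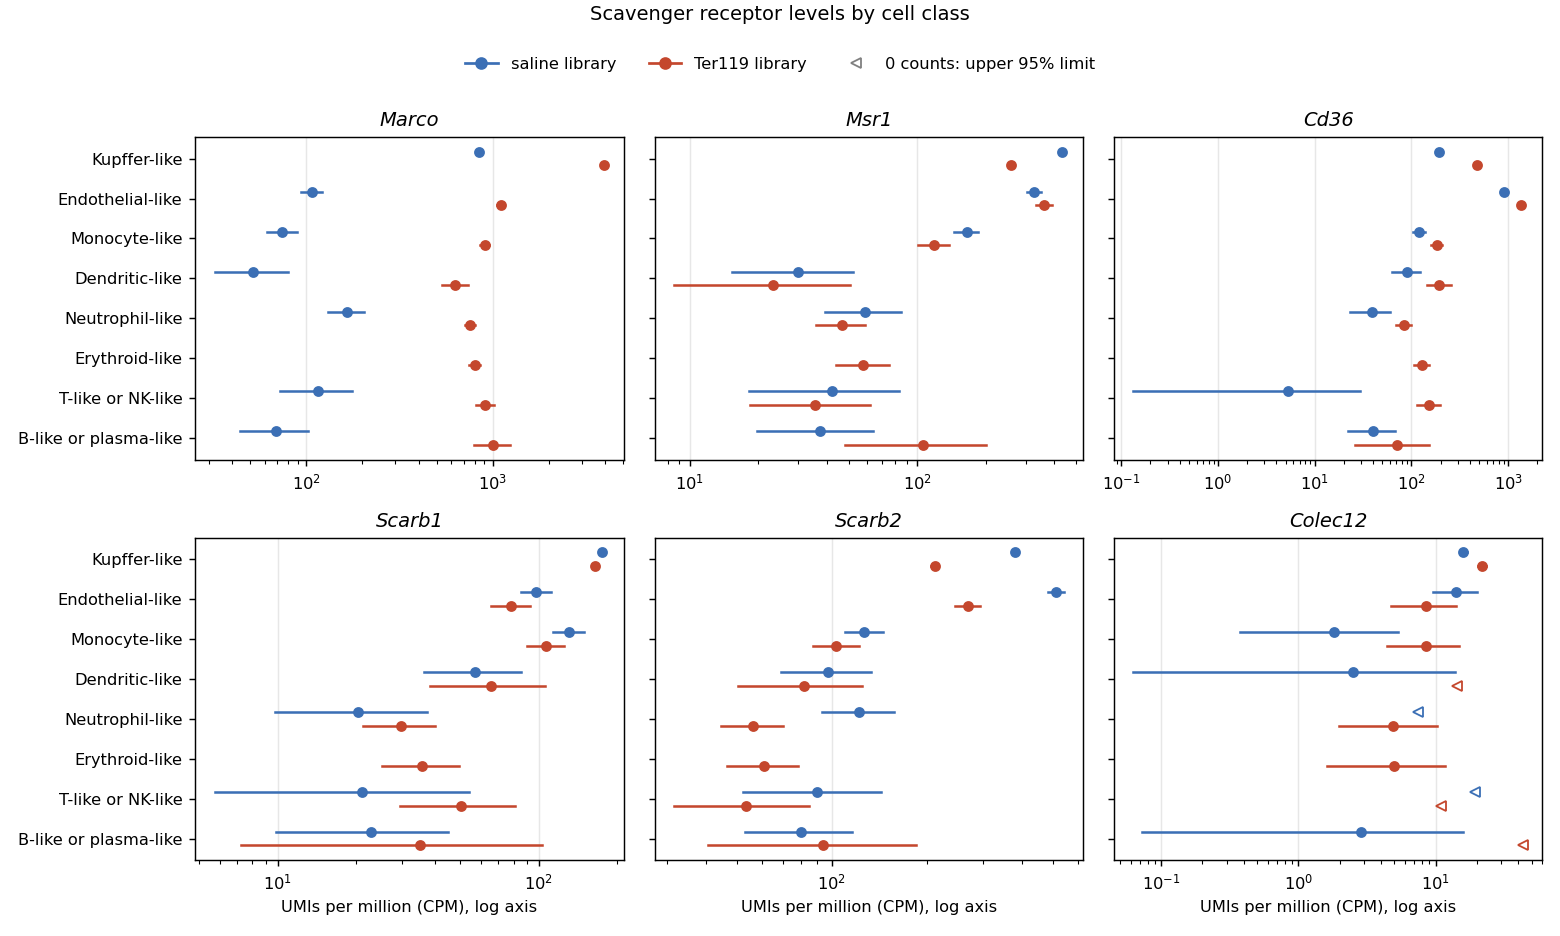
Level of each receptor (CPM, log axis) in 8 cell classes of the saline (blue) and Ter119 (red) libraries, with exact 95% Poisson intervals, which cover counting error only, and open triangles for the upper limit where no UMI was counted. Marco and Scarb1 are highest in the top row, Kupffer-like cells, while Cd36 and Scarb2 are highest in endothelial-like cells, and no erythroid-like cell was found in saline.

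Over the 6 other classes compared between the libraries, 30 of 36 pairs of receptor and class passed the minimum of 20 CPM, and in Ter119 11 stood higher by 2-fold or more and 1 lower. Marco accounts for 6 of the 11. Among the rest, Scarb1 in T-like or NK-like cells, at 2.40 (0.78 to 9.79), has an interval that holds 1. Msr1 in B-like or plasma-like cells, at 2.84 (1.07 to 7.18), rests on 13 saline and 9 Ter119 UMIs. In endothelial-like cells 1 receptor was higher (2.87% of genes), in monocyte-like cells 1 (1.97%), in dendritic-like cells 2 (9.13%), in neutrophil-like cells 2 (13.3%), in T-like or NK-like cells 3 (7.62%) and in B-like or plasma-like cells 2 (12.1%). The lower one was Scarb2 in neutrophil-like cells, at 0.462 (0.326 to 0.656), where 32% of genes were lower. Of the 11, 3 had a Ter119 level whose interval lay above the range of the Kupffer markers in the same class: Marco in T-like or NK-like cells, Cd36 in dendritic-like cells at 2.17 (1.38 to 3.42) and Cd36 in T-like or NK-like cells. The last rests on 1 saline UMI, with a ratio of 28.8 (4.93 to 1158). It passed the minimum through the Ter119 library only (5.27 CPM in saline), so it had to be higher there.

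Other scavenger receptors stood on both sides of saline in Ter119 Kupffer-like cells. Of 23 such genes, 12 passed the minimum, of which 2 stood 2-fold or more above saline and 6 below it, beside 3.17% and 10.6% of all genes. With median-of-ratios or TMM factors 5 were below. Their median log2 ratio was -0.85 beside -0.31 for all genes. Cd163, which takes up haptoglobin with its bound hemoglobin, had 830 CPM in the saline library and 28.4 CPM in the other, 29.3 times lower. Cd207, the lectin langerin, was at 180 and 42.0 CPM, 4.29 times lower. Cxcl16, a membrane chemokine that binds oxidised lipoprotein (260 and 65.8 CPM), and Cd14, the co-receptor for lipopolysaccharide (137 and 47.7 CPM), were lower too. So was Scarf1, a class F receptor (43.9 and 15.5 CPM). It passed the minimum through the saline library only, so it had to be lower in Ter119. In endothelial-like cells Cxcl16 was at 305 and 258 CPM and Scarf1 at 116 and 63.3 CPM, in both libraries above the Kupffer-like level. Stab2, a hyaluronan receptor, lay on the line at 128 and 63.9 CPM (ratio 0.499), and it was at 1235 and 902 CPM in endothelial-like cells. Endothelial marker RNA in Kupffer-like barcodes was lower in Ter119, as given above, and its part in these 3 values was not tested. The 2 higher genes were Lgals3, which encodes galectin-3, at 515 and 1166 CPM (ratio 2.26), and Clec7a, which encodes the beta-glucan receptor dectin-1, at 520 and 1090 CPM (2.10). Lymphocytes held 258 and 607 CPM of Lgals3. Past 2-fold, 2 of these 12 receptors thus shared the direction of Marco and Cd36. When barcodes with any endothelial marker UMI were left out, 1 of the 12 stood higher and 6 lower. The median log2 ratio of the list was then -0.93. Its sign was also kept under the other scalings (-0.54 with median-of-ratios and -0.55 with TMM factors).

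Among 36 genes of lipid handling, regulation and signalling that work with these receptors, 31 passed the minimum. Past 2-fold, 5 stood higher in Ter119 and 2 lower, beside 3.17% and 10.6% of all genes, and the median log2 ratio was -0.37 beside -0.31 for all genes. Of the 5 higher genes, the 4 described here passed the minimum through the Ter119 library only, so they had to be higher there, and the 2 counts are not set against each other. Fabp5 and Fabp4 encode carriers that bind fatty acids inside the cell. Fabp5 was at 14.5 and 1165 CPM in saline and Ter119, a ratio of 80.5 (75.7 to 85.6), and Fabp4 at 12.1 and 187 CPM, 15.5 (14.5 to 16.7). Both were also abundant in endothelial-like cells, Fabp5 at 285 and 884 CPM and Fabp4 at 620 and 2985 CPM, and Fabp5 was at 697 CPM in Ter119 lymphocytes. Pparg, the nuclear receptor known to drive Cd36 transcription, was at 10.4 and 46.3 CPM, 4.46 (4.08 to 4.87). Cd9, a tetraspanin that associates with Cd36, was at 14.6 and 163 CPM, 11.2 (10.5 to 12.0). In endothelial-like cells Cd9 was at 157 and 247 CPM, above the Kupffer-like level in both libraries, and in lymphocytes it was at 111 and 109 CPM.

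The 2 lower genes were Tlr2, a receptor for bacterial lipoproteins that signals with Cd36, at 75.6 and 30.4 CPM (ratio 0.402), and Acsl1, which activates fatty acids, at 51.3 and 21.4 CPM (0.418). Nfe2l2, which encodes the antioxidant regulator NRF2, was at 152 and 97.2 CPM (0.638). All 5 genes of cholesterol exit, Abca1, Abcg1, Apoe, Npc1 and Npc2, stayed within 2-fold, as did all but 13.8% of genes, and Apoe was near the line (ratio 0.509). Of the 8 regulators, 7 passed the minimum and only Pparg was past 2-fold in either direction.

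Across the 12 combinations of class and library with at least 50 cells, some genes had a pattern close to that of a receptor. Likeness was Pearson's r of log2(CPM + 20) among 5769 genes, given with no test since the points share libraries and, as shown above, Kupffer RNA. The genes nearest to Marco were Hmox1, the enzyme that breaks down heme (r = 0.986), Spic, which encodes the factor Spi-C of red pulp and iron-handling macrophages (0.972), the adhesion molecule Vcam1 (0.947) and Ncapg2 (0.940). Those nearest to Msr1 were Dse (0.980), Slc30a1 (0.966), Camk1 (0.954) and Rreb1 (0.9501), and those nearest to Cd36 were Mgat4b (0.965), Lima1 (0.964), Msantd4 (0.962) and Mt1 (0.956). Scarb1 was nearest to Cyfip1 (0.954), M6pr (0.951), Tmem51 (0.949) and Plxnb2 (0.945). Scarb2 was nearest to Rreb1 (0.984), Mib1 (0.972), Pank3 (0.964) and Gnpda1 (0.962), and Colec12 to Lmbrd2 (0.9496), Mertk (0.909), Dip2c (0.904) and Tmem65 (0.893). No gene was among the nearest 4 of both Marco and Cd36.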

How the data were processed

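Single-cell RNA was measured in 1 saline and 1 Ter119 mouse. Raw UMI counts were deposited by the authors as 1 matrix per library, and per the file headers Cell Ranger 6.0.2 wrote them. The submitters' processing notes name GRCm38.p6, DESeq2 1.26.0, Seurat 3.2.3, Scanpy 1.7.0 and an older Cell Ranger, 4.0.0. How hashtags were assigned to mice was not stated there.

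Barcodes with under 1000 UMIs, under 500 genes or over 15% mitochondrial UMIs were dropped. A cell joined a class when its marker UMIs passed 1 cut only (for Kupffer-like cells, 10000 CPM, hemoglobin left out). Cells past several cuts were left out as mixed (377 saline, 1184 Ter119), except that a monocyte score did not bar the neutrophil class, and cells past none stayed unnamed (238 and 1174) unless hemoglobin was at least 20% of UMIs (erythroid-like). The cuts were set after looking at the marker scores. Scrublet (in scanpy 1.11.5, expected rate 0.08) called 0 of 11572 and 1 of 13846 cells, so it did not work and doublets were removed only as mixed cells. The clusters used leiden (leidenalg 0.10.2) at resolution 1.0 on 2000 variable genes, 30 components and 15 neighbours, without the 6 receptors.

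Counts were summed per class and library as CPM. Ratios have exact conditional binomial, levels exact Poisson and shares exact Clopper-Pearson intervals (95%), which cover counting error only, and a count of 0 is read as up to 3 counts. Genes with at least 20 CPM in 1 library were called past 2-fold by size, with no test across mice. The ratio script was tested on simulated data. The named genes are the 6 receptors, the 6 largest changes in each of the 2 lists with Pparg, Nfe2l2 and Olr1, Gpnmb, and for each receptor the 4 genes of most similar pattern. Clec7a, Stab2, Acsl1, the cholesterol exit genes and cluster leaders were named after their values were seen. A gene that this rule would name is not reported here. The receptors and lists were chosen with earlier results of these data known. Alternatives were clusters in place of cuts, other scalings, stricter depth and mitochondrial filters, thinning, and leaving out shared, high doublet score or endothelial-marker barcodes. A stricter Kupffer cut, and clusters made mostly of Kupffer-like cells, were added after seeing the data. Scripts ran in python 3.11.15 with pandas 2.3.3, scipy 1.17.1, numpy 2.4.6 and matplotlib 3.10.9.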

Additional observations from a re-analysis of the deposited data

How the results depend on the processing

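Marco and Cd36 stayed the 2 receptors past 2-fold in Kupffer-like cells, both higher, under all 12 alternatives. The log2 ratios ran from 2.14 to 2.64 for Marco, 1.25 to 1.62 for Cd36, 0.41 to 0.81 for Colec12, -0.84 to -0.43 for Msr1, -0.90 to -0.48 for Scarb2 and -0.23 to 0.37 for Scarb1, which was above 0 in 4 of them. The 12 calls in other classes became 5 of 15 pairs with clusters in place of cuts, 6 of 21 at no more than 5% mitochondrial UMIs, and 4 of 10 without endothelial-marker barcodes, settings with fewer classes or cells to compare. Against 11 higher and 1 lower, there were 12 and 0 with median-of-ratios and TMM factors, 10 and 2 of 27 pairs when thinned, 7 and 3 of 25 at 2000 UMIs or more, 5 and 0 with clusters, 4 and 2 at 5% mitochondrial UMIs, and 3 and 1 without endothelial-marker barcodes. Without endothelial-marker barcodes, the lipid and partner genes past 2-fold numbered 11 in place of 7 (9 higher, 2 lower), and the cause was not tested. Over all genes in Kupffer-like cells, 22.9% of 885 calls were higher, against 50.0% of 694 with median-of-ratios and 48.4% of 707 with TMM factors, which move the median log2 ratio from -0.31 to 0 and -0.02, and against 32.8% of 774 without hemoglobin genes. Receptors with a higher share of Kupffer-like cells in Ter119 numbered 3 thinned to 1000 UMIs, 4 thinned to 2000 and 2 without thinning. Depth limits Colec12 and the small classes, whose intervals are wide. No paired analysis was possible because each group has 1 mouse and the labels carry no replicate numbers.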

Other observations

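Mixed barcodes passed the cuts of more than 1 class and entered no comparison. Of 377 such barcodes in saline, 208 carried Kupffer and endothelial markers, and of 1184 in Ter119, 406 carried Kupffer and erythroid markers and 176 Kupffer and endothelial markers. Marco was at 614 CPM in all the saline ones and at 1886 CPM in all those of Ter119, and Cd36 at 299 and 360 CPM. The pairs below include barcodes past a further cut. With Kupffer and erythroid markers in Ter119, Marco was at 1612 CPM and Cd36 at 187 CPM. With Kupffer and endothelial markers they were at 2375 and 839 CPM in Ter119 and at 796 and 413 CPM in saline. Each value of a pair lay between the levels of the classes combined.

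The unnamed barcodes, 238 in saline and 1174 in Ter119, held Marco at 74.1 and 1083 CPM and Cd36 at 126 and 253 CPM.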
